A study of Homo sapiens with 8 samples.

Results

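The collagen genes were followed across the 4 conditions of a factory RNA-Seq experiment in IMR90. They were picked by symbol alone, as every gene named COL, a number, A and a number, and 44 of the 28265 genes in the count tables qualified. By the kind of assembly their protein forms they comprised 11 fibrillar, 6 type IV, 5 type VI, 10 FACIT (fibril-associated collagens with interrupted triple helices), 3 short chain, 4 transmembrane and 2 multiplexin genes, COL7A1 of the anchoring fibril, and 2 others. IMR90 is a fibroblast line from human fetal lung, used here at low passage, and factory RNA-Seq isolates RNA held at the sites of transcription. The control libraries (labelled young, wild type) name no agent, 2 conditions were exposed to inflachromene (ICM, a small molecule that binds the chromatin proteins HMGB1 and HMGB2) for 3 or 6 days, and the fourth, MetaICM, carries a treatment name that the labels do not explain. No genotype separated the conditions, and each had 2 libraries, which the labels do not tie to separate cultures.

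Each library held between 12095123 and 23166405 counted read pairs on exons. The labels give poly(A)+ selection for all of these libraries and the tables count exons, so newly made and mature transcripts of a collagen gene cannot be told apart in these values. Bulk libraries also cannot separate fewer producing cells from less RNA per cell. Levels are relative to the other genes of a library, so a change in total RNA per cell would not show. Of 8 fibroblast markers, 7 reached at least 1 CPM (a library's counts brought to a common total and scaled for composition by TMM) in every library, S100A4 being the exception. Of the markers of other cells, 2 of 5 endothelial (TEK at 124 to 231 CPM and VWF at 1.43 to 4.89), 2 of 6 epithelial (KRT8 and KRT18, the latter at 27.9 to 84.8), 1 of 4 immune (CD68 at 4.22 to 20.5) and 2 of 5 cartilage markers did so too, while PECAM1 and CDH5 of endothelium stayed under 1 CPM and CD3E of T cells was at 0. Smooth muscle and contractile markers reached at least 1 CPM in every library for 4 of 5, with ACTA2 at 58.8 to 486 CPM and TAGLN at 48.2 to 528 CPM. Libraries of a condition differed by more than the sampling noise of their counts, with a chi-square per gene between 5.82 and 24.8.

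Collagens are the main structural proteins of the extracellular matrix. Their chains wind into a triple helix, in which every small repeat begins with glycine, and the helices are secreted, trimmed and built into fibrils, networks or filaments that are then crosslinked. Fibroblasts are the principal source of the fibrillar types I, III and V and of type VI, basement membranes are built on type IV, and the remaining classes decorate fibrils, anchor epithelia or span the cell membrane. Fibrillar collagen synthesis is a defining activity of lung fibroblasts in repair and scarring.

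The repeat is visible in the gene structure, and it sets collagens apart from the genes around them by a feature that their symbol does not use. Inner exons of exactly 54 bases made up 48.0% of 635 in the fibrillar genes, 26.0% of 454 in the FACITs and 4.18% of 287 in the type IV genes, against 0.434% of 197177 in all other genes. Lengths that are a multiple of 9 bases, the length that encodes 1 repeat, made up 62.7% of inner collagen exons and 13.2% of the others. An exon of COL5A1, the main chain of type V collagen, is shown as an example because it holds the repeat without interruption. It is exon 15, at chr9:137645696-137645749 on the plus strand of hg19. The capitals mark the pair of G that begins the glycine codon at the start of each repeat, and a further glycine codon (gga) inside a repeat is not marked.
COL5A1 exon 15: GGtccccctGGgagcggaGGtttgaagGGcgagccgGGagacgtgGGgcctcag
The 34 collagens with enough counts for a test had a median of 49.5 exons, 6482 exon bases and a span of 120 kb, against 8 exons, 3281 exon bases and 25.0 kb over 16514 genes tested.

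**Figure D1:**
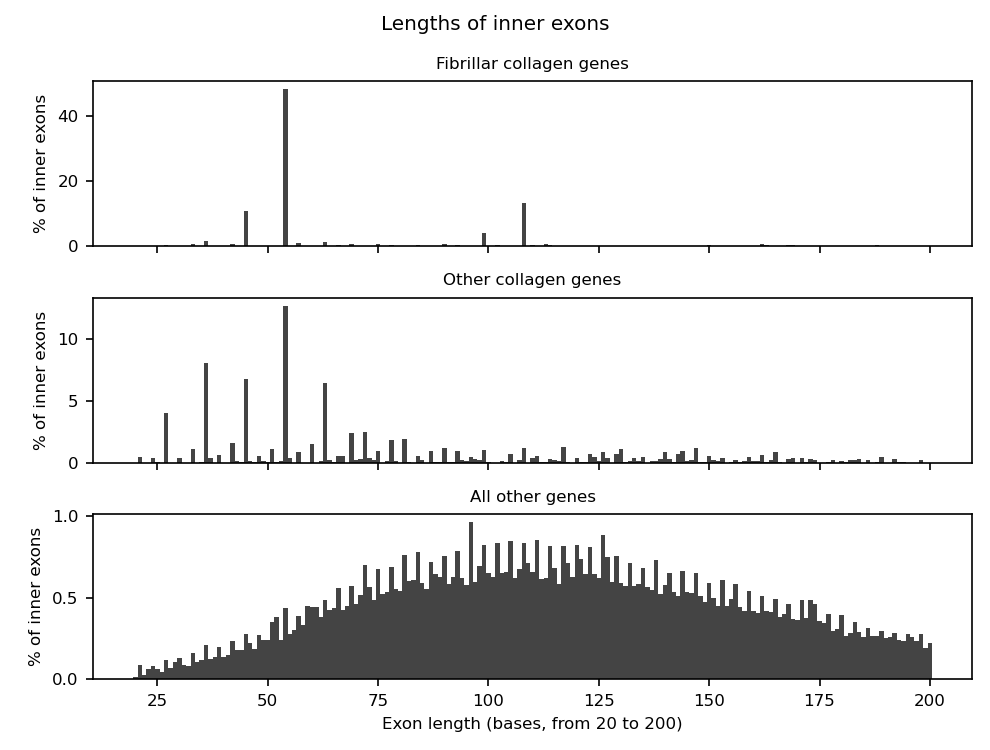
Share of inner exons (percent, vertical axis) at each exon length (bases, horizontal axis) in fibrillar collagen genes, in the other collagen genes and in all other genes. The fibrillar genes have single peaks at 45 (10.9%), 54 (48.0%) and 108 bases (13.2%), whereas no length reaches such a share in all other genes.

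Several collagens are neighbours. COL4A1 and COL4A2, which encode the common chains of basement membranes, start back to back on chromosome 13 with 126 bases between them. That interval, chr13:110959505-110959630 of hg19 written on the plus strand, is shown because a single stretch lies before both genes; the capitals mark CCAAT and GGGCGG, letters searched on both strands.
COL4A1 and COL4A2 interval: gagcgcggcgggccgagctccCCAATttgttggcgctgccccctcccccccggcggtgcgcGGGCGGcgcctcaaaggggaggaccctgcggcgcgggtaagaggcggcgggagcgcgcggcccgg
COL4A3 and COL4A4 stand 418 bases apart in the same arrangement, and COL4A5 and COL4A6 379 bases apart. COL3A1 and COL5A2 lie tail to tail over 19.2 kb, COL6A1 and COL6A2 follow each other over 93.1 kb, COL6A5 and COL6A6 over 75.5 kb, and COL9A1 and COL19A1 meet tail to tail over 2.59 kb.

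RefSeq promoter sequences (GRCh38.p14) matched 32 of the 44 collagens. Those without an entry were COL1A1, COL1A2, COL2A1, COL3A1, COL5A2, COL6A1, COL6A5, COL8A1, COL9A3, COL14A1, COL20A1 and COL22A1. In the window from 250 bases before to 50 after the start, on either strand, GGGCGG occurred in 56.3% of these collagens and 51.5% of 18284 promoters, CCAAT in 28.1% and 34.3%, TATAAA in 15.6% and 9.59%, TGACNNNGC in 6.25% and 11.6%, and TGANTCA in 0% and 5.79%. These shares describe letters in a window. The 250 bases before COL7A1 and before COL15A1 are given because these genes showed the steepest rise and one of the steepest falls at 3 days; both read 5′ to 3′ on the strand of the gene, with TATAAA and GGGCGG, or their reverse complements, in capitals, and the COL7A1 window ends 169 bases before the first exon that the count tables use.
COL7A1, chr3:48595330-48595579 of GRCh38.p14, minus strand: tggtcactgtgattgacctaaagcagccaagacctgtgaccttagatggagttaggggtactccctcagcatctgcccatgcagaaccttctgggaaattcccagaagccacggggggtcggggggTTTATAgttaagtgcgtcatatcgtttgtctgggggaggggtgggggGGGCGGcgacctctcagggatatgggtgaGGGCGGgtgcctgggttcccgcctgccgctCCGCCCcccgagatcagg
COL15A1, chr9:98943657-98943906 of GRCh38.p14, plus strand: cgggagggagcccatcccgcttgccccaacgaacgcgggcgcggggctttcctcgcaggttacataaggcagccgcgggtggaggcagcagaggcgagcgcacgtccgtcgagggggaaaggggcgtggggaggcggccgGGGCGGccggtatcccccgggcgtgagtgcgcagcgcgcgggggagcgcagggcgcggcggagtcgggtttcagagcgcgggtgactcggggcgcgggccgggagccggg

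Collagen genes took 6.05% and 5.72% of all counted read pairs in the control libraries. The share was 4.59% and 4.35% after 3 days of ICM, 3.67% and 3.50% after 6 days, and 5.34% and 5.26% in MetaICM, so it stepped down with time in ICM and no pair of conditions overlapped. The 8 strongest collagen genes of a library held between 82.4% and 87.8% of its collagen counts. Summed per kilobase of exon, so that long and short genes can be added, the level of all collagens after 3 days was 70.7 ± 4.01% of control (SD, n = 2), after 6 days 55.8 ± 1.22% and in MetaICM 89.5 ± 0.104%.

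The classes did not move alike. The fibrillar sum, in CPM per kilobase, was 3890.2 and 3755 in control, 2595 and 2321 after 3 days, 2069.9 and 2009 after 6 days and 3146 and 3277 in MetaICM. On the same scale the type VI sum was 3017 and 2566 in control, 1776 and 1640.4 after 3 days, 1075 and 1061 after 6 days and 2883 and 2813 in MetaICM. Type VI thus stood at 38.3 ± 0.343% of control after 6 days and at 102 ± 1.78% in MetaICM, and the fibrillar class at 53.3 ± 1.13% and 84.0 ± 2.41%. For type IV the sum was 949.7 and 660.5 in control, 701 and 627 after 3 days, 405 and 381 after 6 days and 588 and 599 in MetaICM; the control libraries differed from each other more than in any other condition, and control replicate 2 lay between the 3-day libraries. The FACIT sum was highest after 6 days, with 883 and 848 in control, 907 and 926 after 3 days, 1122 and 1067 after 6 days and 789 and 691 in MetaICM, or 126 ± 4.54% of control after 6 days; nearly all of it was COL12A1.

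**Figure D2:**
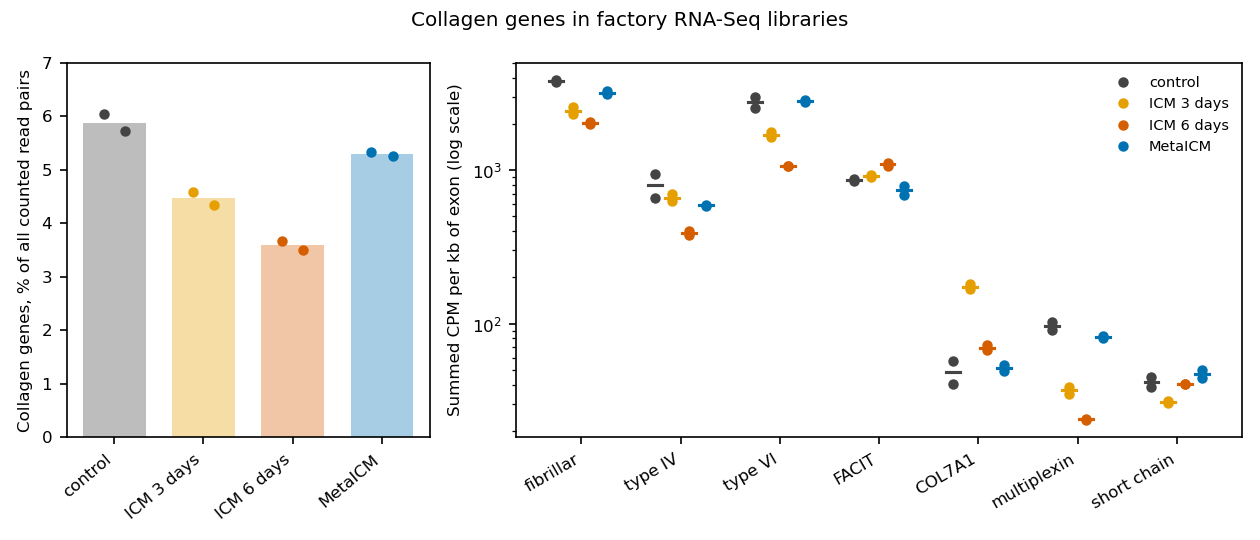
Left, collagen genes as a percentage of all counted read pairs, with bars at the mean and points for the 2 libraries of each condition. Right, summed CPM per kilobase of exon (log scale) of 7 collagen classes, with points for libraries and lines for means; fibrillar, type VI and multiplexin sums step down from control through 3 to 6 days, COL7A1 peaks at 3 days and the FACIT sum is highest at 6 days.

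To ask which genes carried these shifts, conditions were compared with the quasi-likelihood test of edgeR, adjusted by Benjamini-Hochberg over all genes tested, and a gene was called when its adjusted p was under 0.05 and its absolute log2 fold change (log2FC) over 0.6. After 3 days of ICM, 10 of 34 tested collagens fell and 3 rose, whereas 13.2% of all 15692 genes fell and 8.83% rose. After 6 days 16 of 34 fell and 3 rose, against 17.3% and 13.4% of 15950 genes. The share of collagens that fell was thus above that of all genes at both times. The 3 that rose at each time were 8.82%, which was the background share at 3 days. At 6 days it stood beside 13.4%, and 3 genes are too few to read this as a difference. The median log2FC of the tested collagens was −0.29 at 3 days and −0.66 at 6 days, with medians over all genes of 0.0094 and −0.0013. In MetaICM, 6 of 34 collagens were lower and 0 higher than in control, against 8.94% and 7.41% of 15904 genes, with a median of −0.21 beside −0.0011; 15 of the 34 had an unadjusted p under 0.05, DESeq2 also called 0 higher, and 2 were higher without control replicate 1. These 3 comparisons use the same control libraries. Single libraries mattered for some counts: 6 collagens were lower at 3 days without control replicate 1, and also without the 3-day replicate 2, 1 was higher at 6 days without the 6-day replicate 2, and 3 were lower in MetaICM without MetaICM replicate 2.

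Altogether 34 collagens passed the filter on low counts, 26 were called in at least 1 comparison and 8 in none. COL2A1, COL6A5, COL9A1, COL19A1, COL20A1, COL22A1, COL23A1, COL25A1, COL26A1 and COL28A1 were never tested, with at most between 1 and 13 counts in any library. They include the cartilage collagens II and IX (alpha 1 chains) and the neuronal membrane collagen COL25A1.

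**Figure D3:**
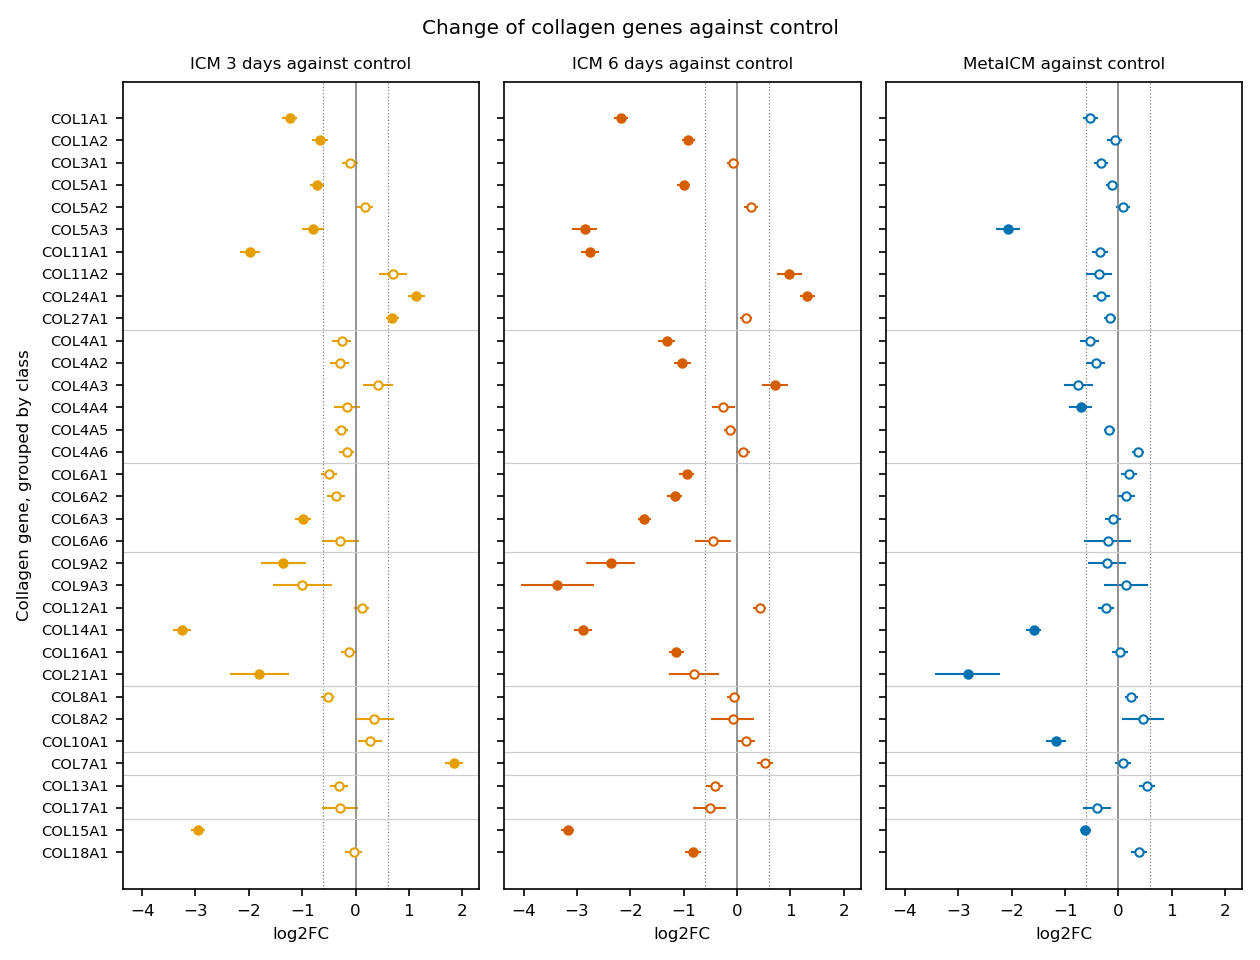
log2FC (horizontal axis) with its SE for each tested collagen gene, grouped by class, against control after 3 days of ICM, after 6 days of ICM and in MetaICM. Filled points were called and dotted lines mark an absolute log2FC of 0.6; most filled points lie to the left of 0, and COL7A1 (3 days), COL24A1 and COL11A2 (6 days) are among the exceptions.

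Both genes of type I collagen, the chief fibril protein, fell in ICM relative to other genes, COL1A1 more than COL1A2. COL1A1 (chr17:48261457-48279000 of hg19), which encodes the alpha 1 chain, had 8079.6 and 8805 CPM in control, 3640.3 and 3558 after 3 days of ICM, 1889 and 1874 after 6 days and 5749 and 5989 in MetaICM. Its control libraries were the highest and its 6-day libraries the lowest, and no conditions overlapped. It fell at 3 days (log2FC −1.23, SE 0.14, adjusted p = 3.82e-05) and further by 6 days (log2FC −2.17, SE 0.13, adjusted p = 5.2e-08). COL1A2 (chr7:94024207-94060539), the alpha 2 chain that pairs with it, had 7288 and 6526 CPM in control, 4753 and 3988 after 3 days of ICM, 3781 and 3564 after 6 days and 6408 and 6743 in MetaICM. Every ICM library lay below every control and MetaICM library. It fell at 3 days (log2FC −0.66, SE 0.15, adjusted p = 0.0062) and at 6 days (log2FC −0.92, SE 0.12, adjusted p = 8.33e-05); leaving out control replicate 1 gave −0.58 at 3 days, leaving out the 3-day replicate 2 gave −0.52 and scaling to library totals gave −0.59, all short of the 0.6 threshold.

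The ratio of COL1A1 to COL1A2, each per length, was 0.949 and 1.15 in control, 0.655 and 0.763 after 3 days, 0.427 and 0.450 after 6 days and 0.768 and 0.760 in MetaICM. Every other condition lay below both control libraries, and the 6-day libraries were lowest. COL3A1 (chr2:189839099-189877472), the fibril partner of type I in soft tissues, was called in no comparison and is given after its values were seen, as is COL5A2. It had 3196 and 2993 CPM in control, 3071 and 2696 after 3 days of ICM, 3011 and 2867 after 6 days and 2425 and 2517 in MetaICM. Its log2FC of −0.10 ± 0.14 (SE) at 3 days and −0.078 ± 0.12 at 6 days did not pass, and the level of COL3A1 relative to COL1A1 per length was 0.427 and 0.367 in control, 0.911 and 0.818 after 3 days, 1.72 and 1.65 after 6 days and 0.455 and 0.454 in MetaICM. COL3A1 was thus the weaker of the pair in control and the stronger after 6 days.

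Type V collagen seeds type I fibrils, and its 3 genes behaved differently. COL5A1 (chr9:137533649-137736688) had 1263 and 1181 CPM in control, 756 and 728 after 3 days of ICM, 594 and 633 after 6 days and 1118 and 1147 in MetaICM. Both ICM times lay below control and MetaICM without overlap, with a fall at 3 days (log2FC −0.72, SE 0.13, adjusted p = 0.00123) and at 6 days (log2FC −0.999, SE 0.12, adjusted p = 2.67e-05). COL5A2, the neighbour of COL3A1 at chr2:189896624-190044487, had 2265 and 1881 CPM in control, 2476 and 2217 after 3 days of ICM, 2484 and 2507 after 6 days and 2183 and 2219 in MetaICM; its libraries overlapped between conditions and its log2FC was 0.18 ± 0.15 (SE) and 0.26 ± 0.13. The ratio of COL5A1 to COL5A2, per length, was 0.447 and 0.504 in control, 0.245 and 0.263 after 3 days, 0.192 and 0.203 after 6 days and 0.411 and 0.415 in MetaICM. COL5A3 (chr19:10070237-10121180), the rarest of its chains, had 34.8 and 21.4 CPM in control, 16.7 and 15.9 after 3 days of ICM, 3.70 and 4.14 after 6 days and 7.03 and 6.51 in MetaICM. It fell at 6 days (log2FC −2.85, SE 0.23, adjusted p = 1.13e-06), and the ICM and MetaICM libraries all lay below control. At 3 days it also passed (log2FC −0.79, SE 0.21, adjusted p = 0.012), but the log2FC was −0.39 without control replicate 1 and −0.74 without the 3-day replicate 2, and neither passed.

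**Figure D4:**
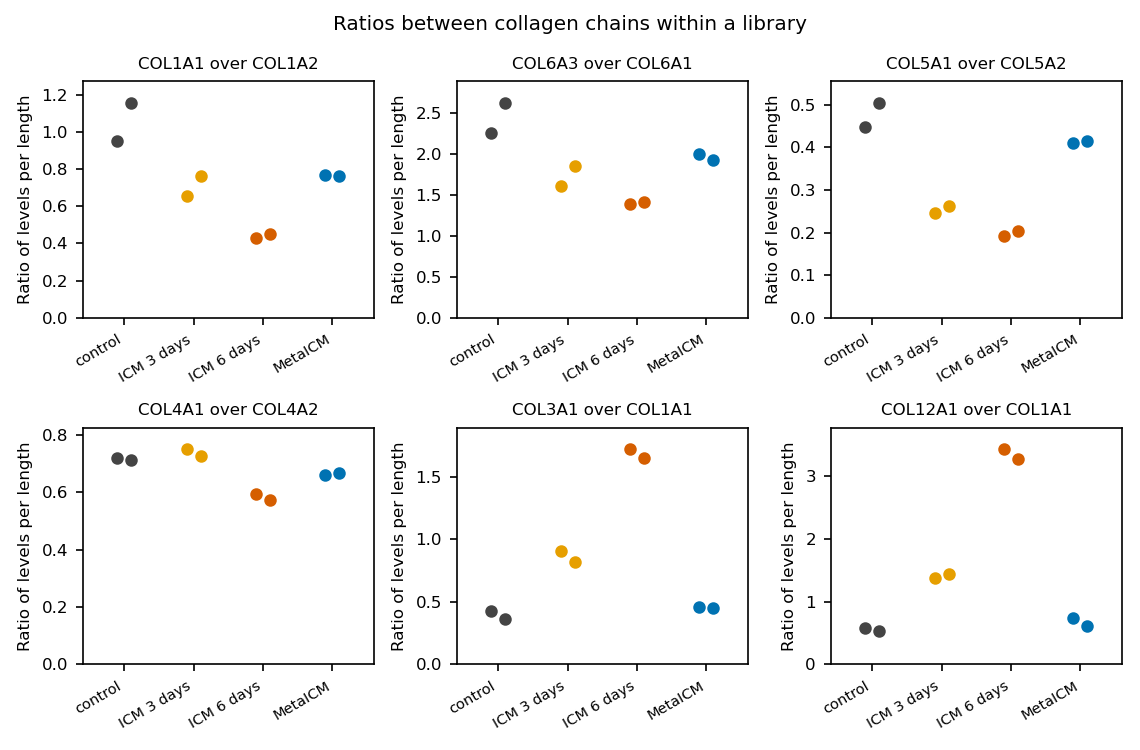
Ratio of levels per length (vertical axis from 0) between pairs of collagen genes in each of the 8 libraries, with 2 points per condition. COL1A1 over COL1A2, COL6A3 over COL6A1 and COL5A1 over COL5A2 are lowest after 6 days, and COL3A1 and COL12A1 over COL1A1 are highest there.

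Of the less abundant fibrillar genes, COL11A1 fell and COL24A1 rose. COL11A1 (chr1:103342023-103574078), which forms the core of thin cartilage fibrils with type II and is also made by activated fibroblasts, had 34.1 and 28.6 CPM in control, 8.83 and 6.94 after 3 days of ICM, 4.62 and 4.68 after 6 days and 26.6 and 22.9 in MetaICM. Libraries with 3 or 6 days of ICM were all under 10 CPM and the others all above 20 CPM. The fall was among the larger ones at 3 days (log2FC −1.98, SE 0.19, adjusted p = 5.02e-06) and at 6 days (log2FC −2.76, SE 0.17, adjusted p = 9.07e-08). COL24A1 (chr1:86194916-86622667), a fibrillar chain of developing bone, had 19.98 and 22.5 CPM in control, 42.3 and 51.4 after 3 days of ICM, 51.1 and 54.8 after 6 days and 19.1 and 15.0 in MetaICM. It rose at 3 days (log2FC 1.14, SE 0.16, adjusted p = 0.000148) and 6 days (log2FC 1.32, SE 0.14, adjusted p = 9.57e-06), and the ICM times did not overlap with control or MetaICM.

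COL11A2 (chr6:33130469-33160245), the second chain of type XI, had 4.52 and 3.31 CPM in control, 6.02 and 6.94 after 3 days of ICM, 6.93 and 8.71 after 6 days and 3.32 and 2.87 in MetaICM. It passed at 6 days (log2FC 0.98, SE 0.23, adjusted p = 0.00519), though not without the 6-day replicate 2 (log2FC 0.81), and at 3 days its values were log2FC 0.70, SE 0.25, adjusted p = 0.0547. This gene is also annotated on 6 alternative sequences of chromosome 6, and reads that fit several places were not counted. COL27A1 (chr9:116917817-117074791), expressed in cartilage anlagen, had 112 and 99.9 CPM in control, 172 and 171 after 3 days of ICM, 115 and 125 after 6 days and 97.5 and 93.8 in MetaICM. Its 3-day libraries were the highest; it rose at 3 days (log2FC 0.69, SE 0.12, adjusted p = 0.00111), though with 0.59 without control replicate 2, under the 0.6 threshold, and its 6-day log2FC was 0.17 ± 0.12 (SE). In the fibrillar class as a whole, 5 of 10 tested genes fell and 2 rose at each time. Of all genes 13.2% fell and 8.83% rose at 3 days, and 17.3% fell and 13.4% rose at 6 days.

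Among the basement membrane chains, the abundant pair fell by 6 days. COL4A1 (chr13:110801310-110959504) had 2789 and 1878 CPM in control, 2093 and 1817 after 3 days of ICM, 982 and 893 after 6 days and 1587 and 1633 in MetaICM. Its neighbour COL4A2 (chr13:110959631-111165556) had 3356 and 2274 CPM in control, 2416 and 2165 after 3 days of ICM, 1432 and 1344 after 6 days and 2082 and 2122 in MetaICM. In both genes control replicate 1 exceeded control replicate 2, the 3-day libraries lay on both sides of control replicate 2, and the 6-day libraries were lowest without overlap. The 3-day values were −0.26 ± 0.18 (log2FC ± SE) for COL4A1 and −0.30 ± 0.18 for COL4A2, while at 6 days COL4A1 fell (log2FC −1.32, SE 0.17, adjusted p = 4.78e-05) and so did COL4A2 (log2FC −1.02, SE 0.16, adjusted p = 0.000304). With control replicate 1 left out, the 3-day values became 0.058 and 0.0098. COL4A1 per COL4A2, per length, was 0.719 and 0.714 in control, 0.750 and 0.726 after 3 days, 0.594 and 0.575 after 6 days and 0.660 and 0.666 in MetaICM, a narrower range than that of the type I pair.

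The other pairs of type IV genes stood far lower. COL4A3 (chr2:228029340-228179508), a chain of the mature kidney and lung basement membrane, had 3.27 and 5.13 CPM in control, 4.74 and 6.47 after 3 days of ICM, 6.87 and 6.75 after 6 days and 2.57 and 2.34 in MetaICM. It passed in edgeR at 6 days (log2FC 0.72, SE 0.25, adjusted p = 0.0323), but not in DESeq2 (adjusted p = 0.094), and its log2FC was 0.40 without control replicate 1, 0.70 without the 6-day replicate 1 and 0.73 without the 6-day replicate 2, none of which passed. COL4A4 (chr2:227867432-228028921), back to back with it, had 5.59 and 5.96 CPM in control, 4.64 and 5.73 after 3 days of ICM, 4.46 and 5.21 after 6 days and 3.27 and 3.78 in MetaICM. MetaICM libraries were lowest for both genes; COL4A4 was lower there than in control (log2FC −0.71, SE 0.21, adjusted p = 0.0331), a call not kept in DESeq2 (adjusted p = 0.105) or without either MetaICM library (−0.59 and −0.81). COL4A5 and COL4A6 on chromosome X, which encode the alpha 5 and alpha 6 chains, were called in none of the 5 comparisons: COL4A5 stayed between 259.8 and 317 CPM and COL4A6 between 32.8 and 49.2 CPM.

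Type VI collagen forms beaded filaments close to the cell surface, and its 3 fibroblast chains all fell by 6 days. COL6A3 (chr2:238232655-238322850), the large alpha 3 chain, had 17218 and 15959 CPM in control, 8432 and 8393 after 3 days of ICM, 4999.8 and 4998 after 6 days and 15866 and 15139 in MetaICM. It had the highest level per length of all collagens in control, at 1551 ± 83.2 CPM per kilobase (SD, n = 2). At 3 days it fell (log2FC −0.98, SE 0.15, adjusted p = 0.000275), and by 6 days further (log2FC −1.73, SE 0.12, adjusted p = 3.09e-07); MetaICM and control were next to each other, and far above both ICM times. COL6A1 (chr21:47401684-47424962) had 2998 and 2389.8 CPM in control, 2055 and 1776 after 3 days of ICM, 1414 and 1392 after 6 days and 3112 and 3082 in MetaICM, and COL6A2 (chr21:47518026-47552762) had 3015 and 2197 CPM in control, 2166 and 1883 after 3 days of ICM, 1178 and 1142 after 6 days and 2864 and 2888 in MetaICM. For both, the 6-day libraries were lowest without overlap, and the 3-day libraries lay below control replicate 2, for COL6A2 by a narrow margin. COL6A1 fell at 6 days (log2FC −0.94, SE 0.13, adjusted p = 0.00012), as did COL6A2 (log2FC −1.17, SE 0.15, adjusted p = 5.05e-05), whereas the 3-day log2FC of −0.49 and −0.37 was under the threshold. COL6A3 per COL6A1, per length, was 2.26 and 2.62 in control, 1.61 and 1.86 after 3 days, 1.39 and 1.41 after 6 days and 2.00 and 1.93 in MetaICM. COL6A6, at no more than 2.43 CPM, was called in no comparison.

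FACITs bind to fibril surfaces. Although their sum was highest at 6 days, 0 of 6 tested FACIT genes were called higher there and 4 lower. Of all genes 13.4% rose and 17.3% fell at 6 days. COL14A1 (chr8:121137341-121385812), which limits the growth of fibrils, showed the steepest fall of all tested collagens at 3 days. It had 90.8 and 119 CPM in control, 10.5 and 11.7 after 3 days of ICM, 15.1 and 13.3 after 6 days and 34.4 and 35.6 in MetaICM. Its conditions did not overlap, the 3-day libraries being lowest, and MetaICM stood between control and ICM. The test gave log2FC −3.25, SE 0.17, adjusted p = 3.06e-08 at 3 days, log2FC −2.89, SE 0.16, adjusted p = 4.01e-08 at 6 days and log2FC −1.59, SE 0.14, adjusted p = 9.68e-05 in MetaICM. COL16A1 (chr1:32117865-32169618), found with small fibrils near cells, had 393 and 285 CPM in control, 323 and 299 after 3 days of ICM, 149 and 160.4 after 6 days and 342 and 349 in MetaICM. At 6 days it fell (log2FC −1.13, SE 0.14, adjusted p = 5.21e-05), and the 3-day log2FC was −0.13 ± 0.15 (SE), or 0.13 without control replicate 1.

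COL12A1 (chr6:75794042-75915769), which links fibrils with the matrix around them, is described after its values were seen, because its largest called change was smaller than those of the other members given here. It had 9354 and 9142 CPM in control, 9918 and 10184 after 3 days of ICM, 12812 and 12138 after 6 days and 8451 and 7279 in MetaICM. Its 6-day libraries were highest and MetaICM lowest. The log2FC was 0.12 at 3 days and 0.43 at 6 days, under the threshold, and per length COL12A1 over COL1A1 was 0.585 and 0.525 in control, 1.38 and 1.45 after 3 days, 3.43 and 3.27 after 6 days and 0.743 and 0.614 in MetaICM. Per length it had rank 4 among collagens in control (789 ± 12.8 CPM per kilobase, SD, n = 2) and rank 1 after 6 days (1064 ± 40.6), when COL1A1 stood at 317 ± 1.69.

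The remaining FACITs were rare. COL9A2 (chr1:40766161-40782958), a cartilage fibril chain, had 2.68 and 1.41 CPM in control, 0.873 and 0.742 after 3 days of ICM, 0.376 and 0.425 after 6 days and 1.44 and 2.17 in MetaICM. It fell at 6 days (log2FC −2.37, SE 0.47, adjusted p = 0.00144), with every ICM library below 1 CPM and the others above it. At 3 days it passed in edgeR (log2FC −1.35, SE 0.43, adjusted p = 0.0315) but not in DESeq2 (adjusted p = 0.115), and its log2FC was −0.78 without control replicate 1, −1.50 without the 3-day replicate 1 and −1.23 without the 3-day replicate 2, none of which passed. COL9A3 (chr20:61448402-61472511) had 0.951 and 0.828 CPM in control, 0.276 and 0.674 after 3 days of ICM, 0.0537 and 0.106 after 6 days and 0.842 and 1.13 in MetaICM, with 3 counts in both 6-day libraries together against 26 in control. That ratio was 11.2, with an exact 95% interval from 3.44 to 58.0 for counting error only, and the test gave an adjusted p of 0.00181; 155 of its exon bases also belong to TCFL5. COL21A1, named here after its values were seen since its control libraries held only 31 and 9 counts, had 1.84 and 0.745 CPM in control, 0.414 and 0.337 after 3 days of ICM, 0.805 and 0.744 after 6 days and 0.198 and 0.174 in MetaICM. It was called lower at 3 days (log2FC −1.80, SE 0.55, adjusted p = 0.0279), or −0.95 without control replicate 1, but not in DESeq2 (adjusted p = 0.114), and in MetaICM (log2FC −2.82, SE 0.61, adjusted p = 0.00832), or −1.97 without control replicate 1 and −2.70 without MetaICM replicate 2; the 3-day call was also lost without either 3-day library (−1.98 and −1.66), and none of these leave-one-out values passed.

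COL7A1 (chr3:48601506-48632593), which builds the anchoring fibrils beneath epithelia, showed the largest rise at 3 days. It had 519 and 369 CPM in control, 1653 and 1541 after 3 days of ICM, 612 and 667 after 6 days and 449 and 492 in MetaICM. The 3-day libraries stood far above all others, and the 6-day libraries were next, above control without overlap. It rose at 3 days (log2FC 1.84, SE 0.17, adjusted p = 3.65e-06), while its 6-day log2FC of 0.52 (SE 0.15, adjusted p = 0.0131) was under the 0.6 threshold. Its level relative to COL1A1, per length, was 0.0415 and 0.0271 in control, 0.294 and 0.280 after 3 days, 0.210 and 0.230 after 6 days and 0.0504 and 0.0531 in MetaICM.

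Multiplexins sit in the zone between basement membranes and the matrix, and both fell by 6 days. COL15A1 (chr9:101706189-101833069) had 357 and 350.0 CPM in control, 47.4 and 44.4 after 3 days of ICM, 40.9 and 37.8 after 6 days and 228 and 233 in MetaICM. Conditions were apart from each other, with control highest, MetaICM next and ICM at both times far below. The test gave log2FC −2.95, SE 0.13, adjusted p = 7.37e-09 at 3 days and log2FC −3.17, SE 0.12, adjusted p = 2.21e-09 at 6 days. COL18A1 (chr21:46825080-46933634), the precursor of endostatin, had 225 and 160.0 CPM in control, 199 and 177 after 3 days of ICM, 109 and 109 after 6 days and 246 and 258 in MetaICM. Its 6-day libraries were lowest; it fell at 6 days (log2FC −0.83, SE 0.15, adjusted p = 0.000656), though with −0.57 without control replicate 1, which no longer passed, and at 3 days its log2FC was −0.036 ± 0.16 (SE), 0.23 without control replicate 1, 0.068 without the 3-day replicate 2 and 0.043 when scaled to library totals. Of its exon bases 1156 also belong to SLC19A1 on the other strand, and read pairs on both genes were not counted.

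Short chain and transmembrane collagens were called only in the comparisons with MetaICM. COL10A1 (chr6:116440072-116447295), the collagen of growth plate cartilage, had 10.05 and 10.4 CPM in control, 9.79 and 15.2 after 3 days of ICM, 11.5 and 11.4 after 6 days and 4.50 and 4.60 in MetaICM. MetaICM was lower than control (log2FC −1.17, SE 0.18, adjusted p = 0.00191), and its libraries lay below all others. COL13A1 (chr10:71561662-71718900), a membrane collagen of cell adhesion sites, had 36.9 and 27.9 CPM in control, 26.9 and 25.5 after 3 days of ICM, 22.7 and 26.2 after 6 days and 44.7 and 49.5 in MetaICM. MetaICM libraries were the highest, and the log2FC against control was 0.53 ± 0.15 (SE), under the threshold. COL8A1, which forms hexagonal networks, was called in no comparison, at 142 to 268 CPM, and neither were COL8A2 and COL17A1, a hemidesmosome protein, at no more than 2.43 and 3.15 CPM.

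**Figure D5:**
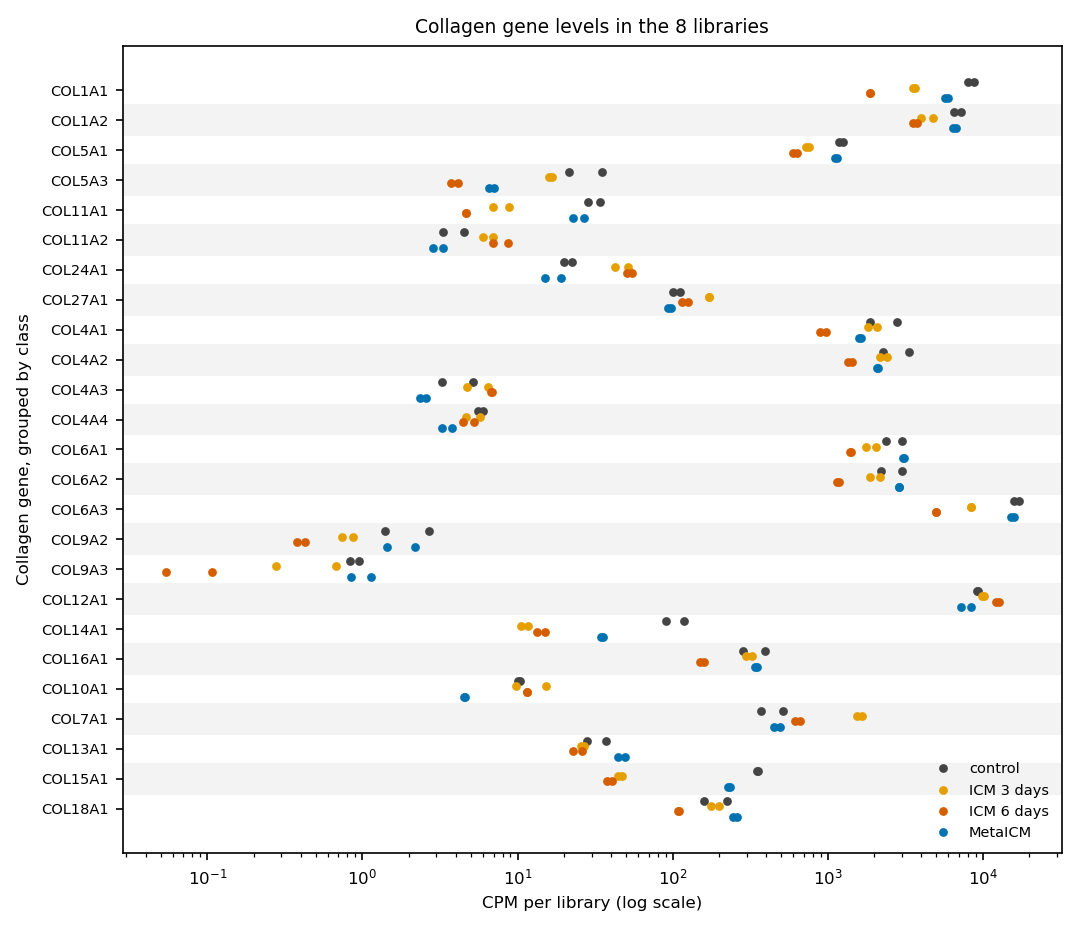
CPM (log scale) of the 25 collagen genes that were called and had at least 10 counts in each library of their highest condition, 1 point per library and 1 colour per condition. COL14A1 and COL15A1 separate ICM at 3 and 6 days from control by wide gaps, COL7A1 is highest at 3 days, and the MetaICM points of COL6A3 lie beside control.

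Whether the falls went on between 3 and 6 days was asked by comparing these libraries directly. In that comparison 10 of 33 tested collagens were lower at 6 days and 0 higher, against 4.56% and 3.52% of 15845 genes. The median log2FC was −0.23 beside −0.0083 over all genes; 19 collagens had an unadjusted p under 0.05, and DESeq2 also called 0 higher. COL5A3 showed the largest decrease (log2FC −2.06, SE 0.17, adjusted p = 5.8e-08), followed by COL7A1 (log2FC −1.32, SE 0.089, adjusted p = 4.87e-09), which came down from its 3-day peak. COL4A1 (log2FC −1.06, SE 0.094, adjusted p = 1.63e-07), COL16A1 (log2FC −1.01, SE 0.089, adjusted p = 1.49e-07) and COL1A1 (log2FC −0.94, SE 0.085, adjusted p = 1.93e-07) also fell. The remaining 5 were COL6A2 (−0.81), COL18A1 (−0.79), COL11A1 (−0.78), COL6A3 (−0.75) and COL4A2 (−0.73); the COL11A1 value was −0.58 without the 3-day replicate 1 and −0.75 without the 6-day replicate 1, and neither passed. For COL14A1 and COL15A1, already low at 3 days, the values were 0.36 ± 0.15 (log2FC ± SE) and −0.23 ± 0.11, not called.

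Many of the collagens that had fallen by 6 days stood higher in MetaICM. The 6-day libraries that gave those falls are used again here, so the comparisons are not independent. Against 6 days, 16 of 34 collagens were higher and 6 lower, with 15.7% and 12.1% of 16036 genes, and the median log2FC was 0.57 beside 0.0069 over all genes. Higher in MetaICM were COL1A1 (log2FC 1.64, SE 0.085, adjusted p = 1.09e-17), COL6A3 (log2FC 1.63, SE 0.091, adjusted p = 8.27e-17) and COL15A1 (log2FC 2.55, SE 0.078, adjusted p = 7.5e-24). COL11A1 (2.41), COL9A2 (2.17), COL6A2 (1.31), COL14A1 (1.30), COL18A1 (1.21), COL16A1 (1.16), COL6A1 (1.14), COL13A1 (0.95), COL5A1 (0.89), COL1A2 (0.84), COL5A3 (0.78) and COL4A1 (0.78) were called as well. COL9A3 was the last of the 16, with 43 counts against 3, a ratio of 12.4 with an exact 95% interval from 3.97 to 62.6. Lower were COL24A1 (log2FC −1.64, SE 0.10, adjusted p = 7.15e-15), COL4A3 (−1.47), COL11A2 (−1.34), COL10A1 (−1.33), COL21A1 (−2.03, or −1.93 without MetaICM replicate 2, not passing, and not called in DESeq2, adjusted p = 0.056) and COL12A1 (−0.66, or −0.56 without MetaICM replicate 2, not passing). COL4A2 came to 0.60, just inside the threshold, and was not called.

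Against control, MetaICM was lower in COL5A3 (log2FC −2.07, SE 0.22, adjusted p = 0.000276), COL14A1, COL21A1, COL10A1 and COL4A4, as given above, and in COL15A1 (log2FC −0.62, SE 0.11, adjusted p = 0.00297). The COL15A1 value stood near the threshold, at −0.60 when scaled to library totals, −0.59 when all genes with a count were kept, −0.58 without MetaICM replicate 1 and −0.62 without MetaICM replicate 2, and did not pass in any of these. For COL1A1 it was −0.53 ± 0.14 (log2FC ± SE), for COL6A3 −0.10 ± 0.14, for COL1A2 −0.074 ± 0.14 and for COL7A1 0.080 ± 0.15, none of them called.

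Genes that make, process, bind or break down collagen were read alongside, from 7 lists with 60 entries, all found in the tables. At 3 days 5 of 54 tested were higher and 21 lower, at 6 days 9 higher and 19 lower, and in MetaICM 5 of 55 were higher and 7 lower than control; their median log2FC was −0.23, −0.21 and 0.053, beside the medians over all genes given above. Thus 9.26% rose and 38.9% fell at 3 days, against 8.83% and 13.2% of all genes, and 16.7% rose and 35.2% fell at 6 days, against 13.4% and 17.3%. In MetaICM the shares of 9.09% and 12.7% stood near the 7.41% and 8.94% of all genes. The proteoglycans that coat collagen fibrils fell, with 7 of 7 tested members lower at 3 days, 6 at 6 days and 3 in MetaICM. BGN, biglycan, had 28.3 and 44.8 CPM in control, 8.23 and 11.3 after 3 days of ICM, 3.76 and 3.88 after 6 days and 6.68 and 5.64 in MetaICM. Every other condition lay below control; the value was −1.92 ± 0.23 (log2FC ± SE) at 3 days and −3.25 ± 0.23 at 6 days, and MetaICM stood at −2.56 ± 0.22, each of them called. ASPN, asporin, was lower as well, with a log2FC of −1.89 ± 0.36 (SE) at 3 days and −2.41 ± 0.26 at 6 days.

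Propeptide removal turns procollagen into fibril-forming collagen, and 4 of 5 tested members were lower and 1 higher at each ICM time. Of all genes 13.2% were lower and 8.83% higher at 3 days, and 17.3% lower and 13.4% higher at 6 days. PCOLCE, which enhances cleavage of the C-propeptide, had 106 and 78.2 CPM in control, 42.5 and 43.2 after 3 days of ICM, 15.8 and 17.2 after 6 days and 72.1 and 78.5 in MetaICM. It was below control at both times (log2FC −1.11, SE 0.15, adjusted p = 0.000157 at 3 days, log2FC −2.49, SE 0.16, adjusted p = 1.33e-07 at 6 days). ADAMTS2, the N-propeptide protease, had a log2FC of −1.22 and −1.57, both called.

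Among 17 genes of hydroxylation, glycosylation and folding, 3 rose and 2 fell at 3 days, and 4 rose and 2 fell at 6 days. In MetaICM 3 were higher (17.6%) and 1 lower (5.88%) than in control, beside 7.41% and 8.94% of all genes. The 11.8% that fell at either ICM time, 2 genes, stood near the 13.2% (3 days) and 17.3% (6 days) of all genes. The 17.6% and 23.5% that rose, 3 and 4 genes, stood beside 8.83% and 13.4% of all genes. PLOD2, the lysyl hydroxylase of collagen telopeptides, had 273 and 221 CPM in control, 1319 and 1150.3 after 3 days of ICM, 1692 and 1442 after 6 days and 295 and 275 in MetaICM. Libraries of both ICM times stood far above all others, without overlap (log2FC 2.32, SE 0.15, adjusted p = 1.9e-07 at 3 days, log2FC 2.66, SE 0.14, adjusted p = 3.03e-08 at 6 days). COLGALT2, a collagen galactosyltransferase, had a log2FC of −1.42 and −1.55, both called. Of 7 secretion genes, 1 fell at 3 days, and 1 rose and 1 fell at 6 days, each 14.3% and near the background; CREB3L1, a transcription factor of collagen secretion, was −0.92 ± 0.16 (log2FC ± SE) and −1.13 ± 0.15, and SAR1B, a GTPase of the carriers that leave the endoplasmic reticulum, was 1.07 ± 0.12 at 6 days.

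Of 5 crosslinking enzymes, 3 fell at 3 days, 1 fell at 6 days, and 2 were higher in MetaICM. Of all genes 13.2% fell at 3 days, 17.3% fell at 6 days and 7.41% were higher in MetaICM, so 1 of 5 at 6 days stood near the background. LOX, lysyl oxidase, had 423 and 524 CPM in control, 235 and 251 after 3 days of ICM, 598 and 653 after 6 days and 359 and 380.2 in MetaICM. It was lowest at 3 days (log2FC −0.97, SE 0.14, adjusted p = 0.000186) and highest at 6 days, where it exceeded the 3-day level (log2FC 1.36, SE 0.088, adjusted p = 3.01e-09). LOXL1 was −1.28 ± 0.16 (log2FC ± SE) at 3 days, −1.17 ± 0.14 at 6 days and 0.65 ± 0.11 in MetaICM; the MetaICM call was lost without MetaICM replicate 2.

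Of 6 tested genes for breakdown and uptake, 1 rose and 1 fell at 3 days, 1 rose and 3 fell at 6 days, and 2 were lower in MetaICM. Each single gene is 16.7% of this list. All genes had shares of 8.83% higher and 13.2% lower at 3 days, 13.4% and 17.3% at 6 days, and 7.41% and 8.94% in MetaICM. MMP1, the interstitial collagenase that opens the triple helix of types I and III, had 75.3 and 42.2 CPM in control, 941 and 829 after 3 days of ICM, 439 and 428 after 6 days and 44.7 and 42.4 in MetaICM. Its 3-day libraries were highest, the 6-day libraries next, and control and MetaICM overlapped (log2FC 3.91, SE 0.23, adjusted p = 6.55e-08 at 3 days, log2FC 2.87, SE 0.22, adjusted p = 5.26e-06 at 6 days). MMP2, a gelatinase, fell at 6 days (−0.93 ± 0.13) and was lower in MetaICM (−1.09 ± 0.12). Of 7 collagen receptors 3 fell at 3 days (42.9%), and 2 rose and 2 fell at 6 days (28.6% each). In MetaICM 1 was lower (14.3%), and all these shares stand beside those of all genes just given. The integrin chains ITGA11 (−0.69, −1.05 and −0.77) and ITGA1 (−0.77, −0.96 and −0.48, the last not called) were among those that fell.

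Markers of contractile cells followed the same order of conditions as COL1A1 and COL6A3. The summed level of ACTA2, TAGLN, CNN1, MYH11 and DES was between 949.6 and 1165 CPM in control, 162 and 178 after 3 days, 134 and 154 after 6 days, and 816 and 904 in MetaICM; 4 of the 5 had at least 1 CPM in every library and none was at 0 in all. The 8 fibroblast markers, which share DCN, LUM and FAP with the lists above, summed to between 4858 and 4928 CPM in control, 2807 and 2969 after 3 days, 2738 and 2744 after 6 days, and 5809 and 6033 in MetaICM. Cartilage markers summed to between 30.5 and 30.8 CPM in control, 14.2 and 15.0 after 3 days, 13.2 and 14.9 after 6 days and 26.3 and 26.5 in MetaICM. Epithelial markers summed to between 68.1 and 103, 36.3 and 37.1, 35.1 and 37.05, and 66.4 and 69.3 CPM in the same order. Both sums were lower at both ICM times than in control and MetaICM, but few genes made them up. Most of the epithelial sum was KRT18, at 27.9 to 84.8 CPM, and EPCAM, CDH1 and SFTPC stayed under 1 CPM. Most of the cartilage sum was SOX9 and MATN3, and ACAN, MATN1 and COMP stayed under 1 CPM. The immune sum went the other way, with 4.97 and 6.36 CPM in control, 18.2 and 22.0 after 3 days, 18.1 and 21.3 after 6 days and 14.1 and 14.6 in MetaICM. Most of it was CD68, at 4.22 to 20.5 CPM, while PTPRC reached at most 1.29 CPM, CD14 at most 1.39 CPM and CD3E 0. Endothelial markers summed to between 185 and 195 CPM in control, 130.4 and 134 after 3 days, 165 and 197 after 6 days and 220.4 and 234 in MetaICM. Nearly all of that sum was TEK, at 124 to 231 CPM. The part of all these markers in the collagen values was not tested.

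Gene structure and level were set beside the changes as a description over the 34 tested collagens, which share libraries and depth. Spearman's rho of log2FC with gene span was −0.069 at 3 days, 0.12 at 6 days and −0.16 in MetaICM, each against control. With the control level per length it was −0.13, −0.18 and 0.18, and with exon GC content 0.018, −0.28 and 0.41 (Pearson's r 0.18, −0.25 and 0.37). The GC value in MetaICM was the largest of these, and the sign for GC differed between 6 days and MetaICM.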

How the data were processed

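Factory RNA-Seq libraries of IMR90 (2 for each of 4 conditions) were aligned by the authors to hg19 (GRCh37) with STAR (2.6.0c, per the submitters' processing notes), and the authors deposited raw counts of read pairs on the exons of each RefSeq gene from featureCounts (1.6.3, per the file headers). Pairs were counted on both strands together, and pairs on several places or genes were not counted. The intronic counts behind the authors' own nascent RNA values were not analysed here.

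Totals ranged from 12095123 to 23166405 counts. Conditions were compared in 5 fits of 4 libraries with edgeR (4.0.16, R 4.3.3): TMM, filterByExpr at a minimum of 10, quasi-likelihood test, Benjamini-Hochberg adjustment over all genes tested, calls at adjusted p under 0.05 and absolute log2FC over 0.6. Levels are TMM-scaled CPM, divided by kilobases of exon where genes are compared. SD covers 2 libraries; p-values measure the spread between these libraries, which may be technical. Collagens were classed from general knowledge. Members were given in full if called in at least 1 comparison with at least 10 counts in each library of the highest condition, up to the 24 with the largest called log2FC, and COL3A1, COL5A2, COL12A1 and COL21A1 were added outside this rule; from each list of collagen-related genes, the 2 called members with the largest log2FC against control were named. Members and lists were chosen with earlier results of these data known.

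The alternatives were DESeq2 (1.42.0), scaling by its size factors, by upper quartiles or by library totals, normalization without collagens, other count filters, an adjusted p of 0.01, no fold threshold, all 8 libraries in one fit, TPM, a replicate block and each library left out. The fits were also run on simulated data with a spread taken from these libraries, which checks the procedure and not the calls made here. Exon positions were checked against GRCh37: 98.6% of 2004 collagen introns begin with GT and end with AG. Tables were made in Python 3.11.15 (pandas 2.3.3, numpy 2.4.6, scipy 1.17.1), figures in matplotlib 3.10.9.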

Additional observations from a re-analysis of the deposited data

Results flagged for a closer look

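The effect of ICM differed between 3 and 6 days for 10 collagens, as the direct comparison of these libraries showed (the quasi-likelihood test of edgeR, adjusted by Benjamini-Hochberg, 2 libraries each). All 10 were lower at 6 days: the log2FC was −0.94 for COL1A1, −1.06 for COL4A1, −0.73 for COL4A2, −2.06 for COL5A3, −0.81 for COL6A2, −0.75 for COL6A3, −1.32 for COL7A1, −0.78 for COL11A1, −1.01 for COL16A1 and −0.79 for COL18A1. COL7A1 was the only one of them that had risen against control at 3 days.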

How the results depend on the processing

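Of 169 pairs of a collagen and a comparison that were tested, 70 were called. Where the gene was tested, 62 kept call and direction under every alternative except leaving out a library, 56 also with each library left out, and 0 reversed; 7 of the 70 could not be tested under at least 1 alternative, all of them COL9A2, COL9A3 or COL21A1, and COL9A3 at 6 days was not tested without control replicate 1. Deviations of same-numbered libraries correlated between −0.13 and 0.23 over the 6 pairs of conditions. The highest value was that of control and ICM 3 days, and whether the replicate numbers pair these libraries cannot be told from it. With the replicate block, all 70 calls were kept, and counts of collagens were 4 higher and 10 lower at 3 days, 3 and 16 at 6 days, 0 and 10 between the times, 0 and 7 in MetaICM against control and 16 and 6 against 6 days.

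Without a fold threshold, 5 collagens were higher at 6 days, 2 between the times and 2 in MetaICM against control. In the collagen-related lists, 16 were higher at 6 days, and 16 were higher and 9 lower between the times. There, MetaICM had 12 higher and 11 lower against control, and 25 higher and 14 lower against 6 days. The shares of all genes under the alternatives are not given. Such counts therefore show how far the numbers move, and are not results about collagens or the lists. With library totals 8 list genes were higher at 3 days. TPM moved the sums at 3 days to 64.9% of control for type VI, 113% for FACITs and 75.1% for all collagens, at 6 days to 59.3% (fibrillar), 53.8% (type IV), 42.4% (type VI), 141% (FACIT) and 61.9% (all), and in MetaICM to 75.0% (type IV), 105% (type VI) and 91.7% (all).

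With each library left out in turn, between 6 and 12 collagens were lower at 3 days, 1 and 3 higher at 6 days, and 0 and 2 higher and 3 and 8 lower in MetaICM against control, where between 3 and 11 list genes were higher. Some uncalled changes took both signs. At 3 days against control the log2FC ran from −0.53 to 0.058 for COL4A1, −0.57 to 0.0098 for COL4A2, −0.047 to 0.55 for COL10A1, −0.36 to 0.13 for COL16A1, −0.22 to 0.0058 for COL3A1 and −0.28 to 0.23 for COL18A1, which was 0.043 with library totals. At 6 days it ran from −1.24 to 0.044 for COL21A1. Between the times it ran from −0.24 to 0.044 for COL4A4, −0.40 to 0.22 for COL10A1, −0.22 to 0.0060 for COL13A1, −0.076 to 0.13 for COL3A1 (−0.0044 with library totals), −0.0018 to 0.17 for COL5A2, −0.013 to 0.24 for LOXL1 and −1.11 to 0.26 for ASPN. In MetaICM against control it ran from −0.15 to 0.013 for COL1A2, −0.069 to 0.39 for COL6A2, −0.14 to 0.35 for COL7A1, −0.55 to 0.37 for COL9A2, −0.077 to 0.35 for COL9A3, −0.19 to 0.28 for COL16A1, −0.042 to 0.23 for COL5A2, −0.40 to 0.061 for CREB3L1 and −0.79 to 0.045 for MMP1. The cause of these changes was not tested.

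With 2 libraries per condition, a fit without one of them assumes that the remaining library varies like those of the other condition. COL9A2, COL9A3 and COL21A1 rest on few counts, and the 10 collagens with the fewest counts were not tested.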
